A study of Mus musculus with 20 samples.

Results

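The mitochondrial DNA-encoded transcripts of the mouse heart were taken as the rows of the deposited table whose gene name starts with "mt-", and 13 of the 29339 rows met that rule. All 13 are protein-coding mRNAs. The mouse mitochondrial genome carries 37 annotated genes in GENCODE release M21 (GRCm38), and its 2 rRNA and 22 tRNA genes were not analysed here. Each member was described by its counts, by FPKM (reads scaled to gene length and library size), by its share of all counts and by its share of the counts of the 13 members.

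The mitochondrial genome is a small circle present in many copies per cell, and cardiomyocytes, which depend on oxidative phosphorylation, hold large numbers of mitochondria. Both strands are transcribed as long precursors, which are cut mostly at the tRNAs that lie between the mRNAs, so that most of the mRNAs leave the same precursor. The 13 proteins are core subunits of complex I (the mt-Nd genes), complex III (mt-Cytb), complex IV (mt-Co1, mt-Co2 and mt-Co3) and complex V, the ATP synthase (mt-Atp6 and mt-Atp8). Fragments of mitochondrial DNA are also found in the nuclear genome, where they are annotated as pseudogenes.

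The study asked how loss of TECRL, an endoplasmic reticulum protein of the steroid reductase family, changes the heart transcriptome in each sex. Hearts of C57BL/6 mice aged 8 weeks gave 20 libraries of poly(A)-selected RNA, with 5 labelled male WT (WT1, WT2 and S7 to S9), 5 labelled male TECRL-/- or KO (S10 to S12, TKO5 and TKO6), 3 labelled female WT (S1 to S3) and 7 labelled female KO (S4 to S6 and TKO1 to TKO4). The KO label stands for Tecrl knockout mice in the study's methods, and no group received a treatment. The library names fall into the S series, with 12 libraries, and the WT/TKO series, with 8, and no label says what separates them.

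Several facts bear on every comparison of genotypes. In 6 libraries, S4 to S9, Xist and the Y-linked genes went against the labelled sex. Tecrl ranged from 67.9 to 145 CPM of nuclear counts (counts scaled to the total of the nuclear genes) over all 20 libraries and did not separate the genotype labels. Every female WT library is of the S series, so the female comparison sets S1 to S3 against S4 to S6. Xist stood at 310 to 497 CPM of nuclear counts in S1 to S3 and S7 to S9, the WT libraries of the S series. In S4 to S6 and S10 to S12, its KO libraries, Xist was at most 0.683 and the Y-linked genes summed to 209 to 264. Within the S series, labelled genotype and the sex-linked genes cannot be told apart. Genotype is therefore given as labelled throughout. Total counts per library ran from 12540002 to 20038593, so counting error is small for the abundant members. In bulk RNA a lower number of cells of a type and less RNA per cell cannot be told apart. Markers of ventricular cardiomyocytes were high in every library, with a summed level of 51893 (S7) to 74085 (TKO6) CPM of nuclear counts.

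The members spanned more than 3 orders of magnitude per length, and low and high members were not scattered along the genome. mt-Co1, the catalytic core of complex IV, had the highest median level with 55750 FPKM over the 20 libraries (SD 7946, n = 20). It was followed by mt-Cytb with a median of 36710, mt-Nd1 with 33979, mt-Nd2 with 18183, mt-Nd4 with 17554, mt-Nd5 with 8177 and mt-Nd6 with 5857 FPKM. A gap came next, and the 6 remaining members lay side by side in 1 block of the genome, from mt-Co2 to mt-Nd4l. Their medians were 1224 FPKM for mt-Co2, 1149 for mt-Co3, 479 for mt-Atp6, 319 for mt-Nd3, 53.7 for mt-Nd4l and 0 for mt-Atp8. The order of neighbouring ranks was kept in 20 of 20 libraries for 8 of the 12 pairs. It was not kept for mt-Cytb over mt-Nd1 (18 of 20), mt-Nd2 over mt-Nd4 (12 of 20), mt-Nd5 over mt-Nd6 (18 of 20) and mt-Co2 over mt-Co3 (12 of 20). The members between mt-Co1 and mt-Nd4 thus differed from their flanks by a margin far above the spread between libraries, although subunits of the same complex stood on both sides. Within complex IV mt-Co1 stood at 55750 FPKM, and mt-Co2 at 1224.

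**Figure D1:**
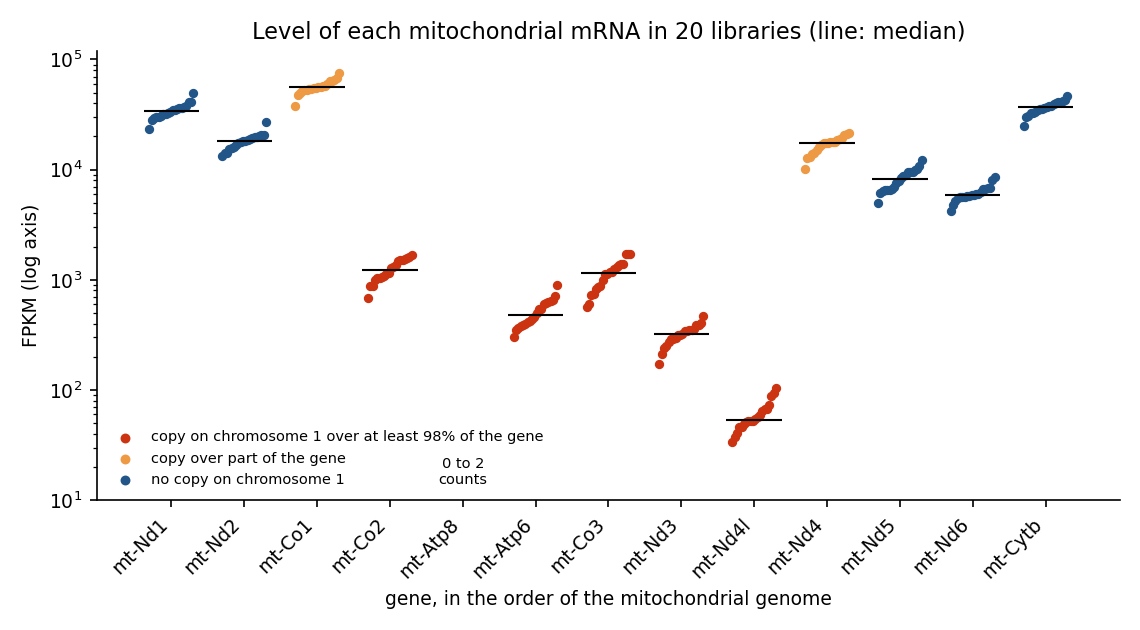
FPKM of each mitochondrial mRNA (log axis) in the order of the mitochondrial genome, 1 point per library (20 libraries, sorted by value) and a line at the median; colour gives the extent of a nuclear copy on chromosome 1. The red members, from mt-Co2 to mt-Nd4l, all have medians of 1224 FPKM or less, and the blue and orange ones have medians of 5857 FPKM or more; mt-Atp8, with 0 to 2 counts, is written in.

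To see which rows share sequence, the members were aligned with all GENCODE M21 transcripts. An alignment of at least 200 bases at 95% identity or more was found for 11 nuclear pseudogenes, all with a row in the table, and 7 of them lie in 1 stretch of 4663 bases on the minus strand of chr1:24611535-24616197. These 7 follow the order of the mitochondrial genome from the end of mt-Co1 to the first part of mt-Nd4. They cover 99.6% of mt-Co2 (Gm28661), 99.6% of mt-Atp6 (Gm10925), 99.9% of mt-Co3 (Gm28437), 99.1% of mt-Nd3 (Gm28438) and 98.99% of mt-Nd4l (Gm10222). Of mt-Nd4 the first 63.6% is copied (Gm28439), and of mt-Co1 the last 31.3% (Gm29216). The aligned bases are identical in 5 of the 7 pairs. The other 2 pairs differ at 1 base each, T3C in Gm28438 against mt-Nd3 and A1066T in Gm29216 against mt-Co1 (member base, position from the first base of the member, copy base).

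The near-identity is shown on stretches of 60 bases, written 5′ to 3′ on the strand of the gene, with capitals in a member where any copy shown differs from it and in a copy where it differs from the member (GENCODE M21, GRCm38). For mt-Co2 the stretch is the one with the most differences from its copy on chromosome 2, Gm13341, at chrM:7457-7516 (plus strand), chr1:24615062-24615121 and chr2:22587471-22587530 (both minus strand).
mt-Co2: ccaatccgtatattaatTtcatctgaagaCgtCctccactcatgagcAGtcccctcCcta
Gm28661: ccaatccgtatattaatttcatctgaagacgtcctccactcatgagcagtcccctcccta
Gm13341: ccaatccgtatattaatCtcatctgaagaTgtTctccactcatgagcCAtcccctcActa
For mt-Nd3 the first 60 bases are given, with the single difference from the chromosome 1 copy, at chrM:9459-9518 (plus strand) and chr1:24613060-24613119 (minus strand).
mt-Nd3: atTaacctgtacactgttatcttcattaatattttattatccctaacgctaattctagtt
Gm28438: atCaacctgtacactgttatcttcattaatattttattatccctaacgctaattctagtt
For mt-Co1 the stretch starts where the chromosome 1 copy begins to align, at chrM:6390-6449 (plus strand), chr1:24616129-24616188 and chr2:22588526-22588585 (both minus strand).
mt-Co1: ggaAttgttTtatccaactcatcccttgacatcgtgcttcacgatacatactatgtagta
Gm29216: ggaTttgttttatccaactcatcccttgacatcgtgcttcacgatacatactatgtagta
Gm13340: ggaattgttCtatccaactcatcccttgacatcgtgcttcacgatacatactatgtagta
In the mt-Co2 set the chromosome 1 copy has 0 differences and the chromosome 2 copy has 6 in these 60 bases. Over their whole alignments the identity with the member was 100% for Gm28661, 95.9% for Gm13341 and 97.6% for Gm13340.

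The copies differed widely in their counts. Gm28661 held a median of 1.88 counts for each count of mt-Co2 (lowest 1.59, highest 2.10 over 20 libraries), whereas Gm13341 held 1 to 23 counts per library. For the other members that are copied nearly in full, the median was 2.73 counts of the copy per count of the member for mt-Atp6, 2.23 for mt-Co3, 3.56 for mt-Nd3 and 1.71 for mt-Nd4l. The copies of these 5 members thus had more counts than the members themselves in 20 of 20 libraries. Where only part of the member is copied, the ratio was far lower, with a median of 0.0188 for Gm29216 against mt-Co1 and 0.0171 for Gm28439 against mt-Nd4. The 7 copies together took 0.423% (S7) to 0.939% (S9) of all counts, and the 5 fully copied members took 0.119% (S7) to 0.299% (S11). Whether a read aligned to both places was discarded, assigned at random or assigned once was not stated, and its part in the low levels from mt-Co2 to mt-Nd4l was not tested. The FPKM of these 5 members is therefore a level after that assignment, and so is the level of each copy.

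**Figure D2:**
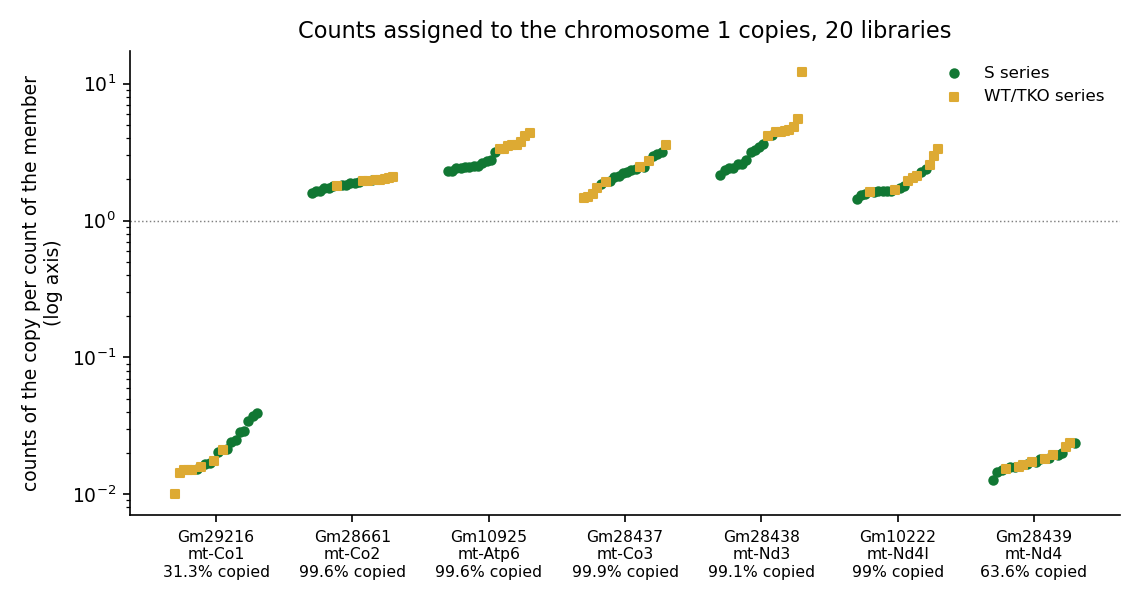
Counts of each chromosome 1 copy divided by the counts of the member it copies (log axis), 1 point per library, circles for the 12 S libraries and squares for the 8 WT/TKO libraries, sorted by value. The 5 pairs with at least 98% of the member copied lie above 1 in every library, and the pairs of mt-Co1 and mt-Nd4 reach at most 0.0389.

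mt-Atp8 was the exception in both respects, and its sequence is printed whole because it had 9 counts in all 20 libraries together. It encodes a small subunit of the ATP synthase and overlaps mt-Atp6 by 43 bases, in capitals, at chrM:7766-7969 (plus strand).
mt-Atp8: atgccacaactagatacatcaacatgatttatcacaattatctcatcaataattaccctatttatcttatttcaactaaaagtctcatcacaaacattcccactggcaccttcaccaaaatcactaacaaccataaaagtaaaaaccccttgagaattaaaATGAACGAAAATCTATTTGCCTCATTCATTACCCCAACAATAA
Its count was 2 in WT1, 1 in each of 7 libraries and 0 in the other 12, against 2727 to 10370 counts of mt-Atp6 per library. No annotated copy of mt-Atp8 met the criteria above, which its length of 204 bases allows only for a nearly complete copy. Without the minimum length, the 1 alignment outside the mitochondrial genome was that of the 43 shared bases, in Gm10925. The gap between Gm28661 and Gm10925 measured 233 bases on chromosome 1, and the gap between the aligned ends of mt-Co2 and mt-Atp6 also measured 233 bases on the mitochondrial genome. Spacing was equal in 5 of the 6 pairs of neighbouring copies, and differed by 1 base between Gm28438 and Gm10222 (74 bases on chromosome 1, 73 on the mitochondrial genome). The chromosome 1 bases in that gap were not read here. How reads in the 43 shared bases were counted was not stated, and mt-Atp8 entered no test.

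Other overlaps between members are short. mt-Nd4l and mt-Nd4 share 7 bases, mt-Atp6 and mt-Co3 share 1, and mt-Nd5 and mt-Nd6 share 14 on opposite strands. mt-Nd6 alone lies on the minus strand. The strand setting of the counting was not stated for these libraries, so reads from mt-Nd6 and from its antisense strand cannot be told apart.

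The 13 members took between 15.3% and 30.4% of all counts. In percent of all counts, the share was 24.9 and 25.1 in WT1 and WT2, 15.3, 20.6 and 19.5 in S7 to S9, 22.6, 22.5 and 21.3 in S10 to S12, 25.7 and 24.5 in TKO5 and TKO6, 19.3, 30.4 and 25.6 in S1 to S3, 20.2, 22.3 and 19.95 in S4 to S6, and 23.5, 22.6, 21.8 and 21.96 in TKO1 to TKO4. S2 was the highest and S7 the lowest of the 20 libraries, and both are S libraries. The mean was 21.1% ± 4.07 (SD, n = 5) in male WT, 23.3% ± 1.78 (SD, n = 5) in male KO, 25.1% ± 5.56 (SD, n = 3) in female WT and 21.7% ± 1.28 (SD, n = 7) in female KO. The WT groups spread more widely than the KO groups, and all 4 ranges overlapped. As a share of summed FPKM the members reached 30.1% (S7) to 48.3% (S2).

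**Figure D3:**
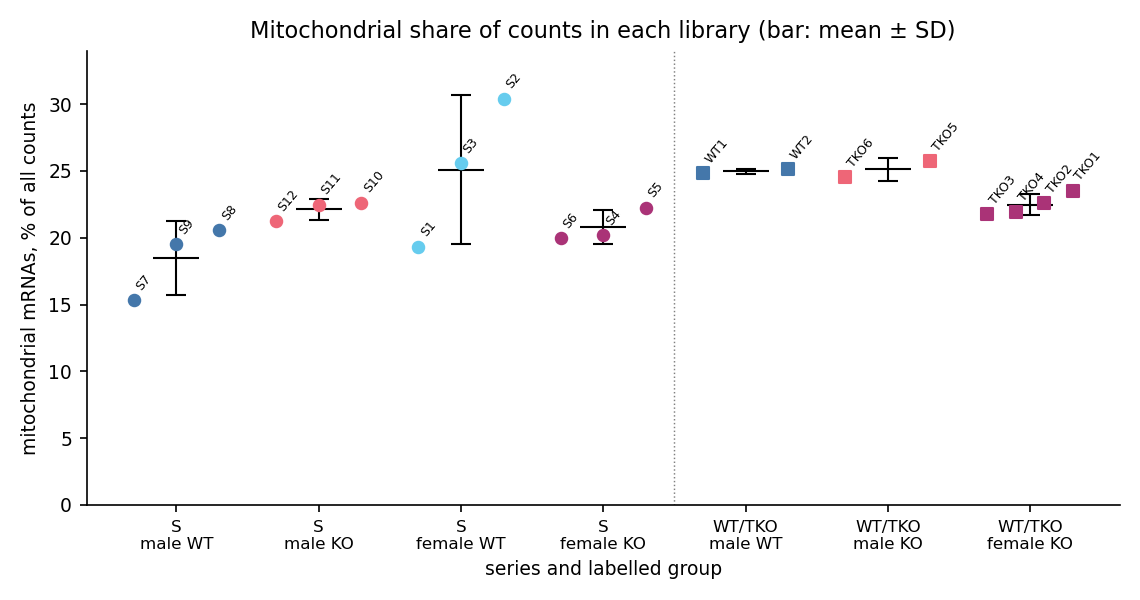
Percent of all counts on the 13 mitochondrial mRNAs, 1 point per library, by series and labelled group; bars give the mean and the SD of each set of libraries. The 8 WT/TKO libraries (squares) lie between 21.8% and 25.7%, and the 12 S libraries (circles) between 15.3% and 30.4%.

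No difference in share between genotypes passed after adjustment. In labelled males the KO libraries were higher by 2.24 points (exact two-sided permutation test within series, p = 0.05, adjusted p = 0.176 over 16 tests, smallest possible p = 0.0167). That difference was 3.64 points among the S libraries and 0.133 points among the WT/TKO libraries, and the pooled value was 1.19 points without S7. In labelled females the KO libraries were lower by 4.31 points on average (20.8% in S4 to S6, 25.1% in S1 to S3; exact permutation p = 0.4, and 3 against 3 cannot go below 0.1). The difference was -7.20 points without S1 and -1.65 without S2. S1 to S3 and S4 to S6 also differ in the sex-linked genes, as do S7 to S9 and S10 to S12. Labelled genotype cannot be told apart from these genes among the S libraries of either labelled sex. Over both labelled sexes, with 8 KO against 8 WT libraries since TKO1 to TKO4 have no WT library in their series, the stratified difference was -0.217 points (exact permutation p = 0.904), and it ran from -1.04 points without S7 to 0.976 without S2. The study's methods give fewer mice per group than most groups here have libraries, so whether every library is of a separate mouse is not stated, and the p-values measure the spread between these libraries, which may in part be technical.

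Between the series the share did differ. Within labelled groups, S libraries were lower by 3.47 points than WT/TKO libraries (exact two-sided permutation test within groups, 9 against 8 libraries, p = 0.000857, adjusted p = 0.0137). The difference was -6.51 points in male WT, -3.00 in male KO and -1.66 in female KO, so it had 1 sign in the 3 groups that hold both series. In male WT and female KO the series also differed in the sex-linked genes. Without S4 to S9 only the male KO libraries hold both series, and the difference was -3.00 points (exact permutation p = 0.1, the smallest possible there). Markers of other cells differed between the series as well. The summed level of 5 macrophage markers was 333 to 600 CPM of nuclear counts in the S libraries and 235 to 304 in the WT/TKO libraries, without overlap. That of 5 atrial markers was 13.9 to 9735 against 11.1 to 23.0, and that of 5 adipocyte markers was 1.27 to 1127 against 0.297 to 2.32, both with overlap. No macrophage or atrial marker was at 0 throughout a series, and the adipocyte marker Lep was at 0 in all S libraries. The 8 ventricular markers summed to 51893 to 73117 in S libraries and 68005 to 74085 in WT/TKO libraries. The part of these markers in the difference was not tested.

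No relation of the share with depth or with the ventricular markers passed across libraries. Against total counts Pearson's r was -0.03 and Spearman's rho -0.22 over 20 libraries (permutation p = 0.909 and 0.342, adjusted p = 0.909 for r over 2 relations). Against the ventricular marker sum r was 0.42 and rho 0.24 (permutation p = 0.0668 and 0.313, adjusted p = 0.134 for r). Without the 2 libraries farthest from the median marker sum, r was -0.03. Within the S series r was 0.37 (n = 12, permutation p = 0.237) and within the WT/TKO series -0.24 (n = 8, exact permutation p = 0.541), against 0.07 and -0.32 for total counts (permutation p = 0.822 and exact permutation p = 0.446). The same step of leaving out 2 libraries gave r of -0.16 for both measures within the S series, and -0.66 for the marker sum and -0.78 for total counts within the WT/TKO series.

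The level of each member in every library showed what moved within that share. For complex I, in FPKM, mt-Nd1 stood at 35325 and 36557 in WT1 and WT2, 23517, 28029 and 31000 in S7 to S9, 34972, 34877 and 33080 in S10 to S12, 40968 and 41193 in TKO5 and TKO6, 30053, 49141 and 38017 in S1 to S3, 29561, 36843 and 30300 in S4 to S6, and 36568, 32306, 32288 and 32592 in TKO1 to TKO4. mt-Nd2 stood at 19057 and 18561 in WT1 and WT2, 13361, 14174 and 14227 in S7 to S9, 18314, 17910 and 15996 in S10 to S12, 20696 and 19193 in TKO5 and TKO6, 15360, 27290 and 20355 in S1 to S3, 18051, 19598 and 15873 in S4 to S6, and 19973, 20728, 16590 and 17284 in TKO1 to TKO4. Both subunits belong to the membrane arm of the complex, and both were highest in S2 and lowest in S7. mt-Cytb, the subunit of complex III that holds the haem groups of cytochrome b, stood at 38170 and 41780 in WT1 and WT2, 24938, 34897 and 33610 in S7 to S9, 39719, 39851 and 38069 in S10 to S12, 41286 and 41406 in TKO5 and TKO6, 30068, 46840 and 42692 in S1 to S3, 32481, 35791 and 30974 in S4 to S6, and 37298, 32388, 35760 and 36121 in TKO1 to TKO4. mt-Co1 stood at 68214 and 63135 in WT1 and WT2, 37977, 54939 and 47287 in S7 to S9, 55877, 52789 and 49463 in S10 to S12, 64978 and 56470 in TKO5 and TKO6, 51873, 75058 and 63167 in S1 to S3, 52916, 55622 and 56898 in S4 to S6, and 57673, 60350, 54282 and 53722 in TKO1 to TKO4. Again S2 was the highest and S7 the lowest library for both, and the genotype groups overlapped in each sex.

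Among the low members, mt-Co2, the subunit of complex IV that receives electrons from cytochrome c, stood at 1075 and 1291 in WT1 and WT2, 677, 1601 and 1557 in S7 to S9, 1307, 1478 and 1352 in S10 to S12, 1033 and 1564 in TKO5 and TKO6, 994, 1682 and 1503 in S1 to S3, 1039, 1506 and 1134 in S4 to S6, and 886, 872, 1157 and 1069 in TKO1 to TKO4 FPKM. mt-Co3 stood at 859 and 1710 in WT1 and WT2, 569, 1003 and 1718 in S7 to S9, 1316, 1731 and 1389 in S10 to S12, 1384 and 1360 in TKO5 and TKO6, 744, 1265 and 1186 in S1 to S3, 820, 1123 and 721 in S4 to S6, and 1172, 605, 878 and 1126 in TKO1 to TKO4 FPKM. mt-Atp6, the proton channel subunit of the ATP synthase, stood at 421 and 501 in WT1 and WT2, 300, 539 and 643 in S7 to S9, 620, 657 and 604 in S10 to S12, 413 and 624 in TKO5 and TKO6, 383, 895 and 708 in S1 to S3, 444, 546 and 456 in S4 to S6, and 362, 349, 393 and 385 in TKO1 to TKO4 FPKM. These values spread more than those of the high members. After the fit of group and series the residual SD was 0.39 (log2) for mt-Co2, 0.39 for mt-Atp6, 0.45 for mt-Co3 and 0.37 for mt-Nd3, and it was 0.23 for mt-Cytb, 0.24 for mt-Nd1, 0.26 for mt-Nd2 and 0.25 for mt-Co1. The median over all 15187 genes tested was 0.31, and that of the 1519 most abundant genes was 0.22.

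In labelled males no member passed the test between genotypes. The fitted log2 fold changes of KO against WT were positive for 12 of 12 members tested, from 0.05 ± 0.18 (SE) for mt-Co1 to 0.31 ± 0.27 for mt-Co3, with a median of 0.22 beside -0.01 over all genes tested (scaled to the mitochondrial total, which centres the members by construction, the median was 0.06 and mt-Co1 stood at -0.10). Of the 12, 0 passed an adjusted p of 0.05 (edgeR, 10 libraries) and 0 passed an unadjusted p of 0.05, where 0% and 4.75% of all 14481 genes tested did. DESeq2 called 0 members after adjustment and 1 before it (background 0.0831% and 5.34%). In edgeR, library totals and nuclear totals each put 2 members under an unadjusted p of 0.05, where 4.38% and 4.25% of all genes were. The KO and WT ranges overlapped for 12 of 12 members, and they were separate for 0.599% of all genes tested. The lowest unadjusted p was 0.0847 for mt-Nd1 (log2 0.27 ± 0.14). Without S7, which had the lowest ventricular marker sum (51893) and the highest adipocyte (1127) and mesothelial (452) sums in CPM of nuclear counts, the median of the members was 0.12. The atrial sum was 9180 in S7, 8073 in S9, 9735 in S11 and 2869 in S12, and 11.1 to 677 in the other male libraries. The part of these markers was not tested. Without S4 to S9 it was 0.05, and since series is a covariate that fit sets TKO5 and TKO6 against WT1 and WT2.

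In labelled females the fitted changes were negative for 12 of 12 members, with a median of -0.33 beside -0.02 over all genes tested (scaled to the mitochondrial total, the median was -0.0039 and mt-Co2 stood at 0.09). S1 to S3 express Xist and S4 to S6 the Y-linked genes, so labelled genotype cannot be told apart from the sex-linked genes here. Of the 12, 0 passed an adjusted p of 0.05 in edgeR (background 0.0551%), and 2 passed an unadjusted p of 0.05, where 17.9% of all genes tested did. These were mt-Nd5, a proton-pumping subunit of complex I (log2 -0.78 ± 0.24, adjusted p = 0.161), and mt-Nd4l, a small membrane subunit of the same complex (log2 -0.67 ± 0.16, adjusted p = 0.141). DESeq2 called both lower (adjusted p = 0.0446 and 0.022), and 2.64% of all genes passed there. In FPKM, mt-Nd4l stood at 52.5 and 40.6 in WT1 and WT2, 67.8, 66.5 and 50.8 in S7 to S9, 64.8, 104 and 59.8 in S10 to S12, 46.2 and 33.9 in TKO5 and TKO6, 73.1, 93.4 and 88.02 in S1 to S3, 51.9, 56.97 and 54.9 in S4 to S6, and 46.4, 37.03, 52.4 and 48.9 in TKO1 to TKO4. The levels of S1 to S3 were thus above those of S4 to S6 without overlap for mt-Nd4l and mt-Nd5 in CPM, and the same held for 8.15% of all genes tested, with the KO libraries lower. The summed skeletal muscle markers were 434 and 401 CPM of nuclear counts in S2 and S3, against 924 in S1 and 922 to 1083 in S4 to S6, and the summed erythroid markers were 1318 and 1108 against 295 and 400 to 779. Of the 5 skeletal muscle markers 2 were tested in edgeR, 1 higher and 1 lower at an unadjusted p of 0.05, so that list did not move together. The part of these markers in the difference was not tested. The other 10 members ran from -0.22 ± 0.22 (mt-Co2) to -0.51 ± 0.25 (mt-Atp6), and S1 to S3 overlapped S4 to S6 for each of them. The comparison leaned on single WT libraries: without S1 edgeR called 7 members lower and the median was -0.54, where 16.8% of all genes were called, and without S2 it called 0 and the median was -0.10.

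**Figure D4:**
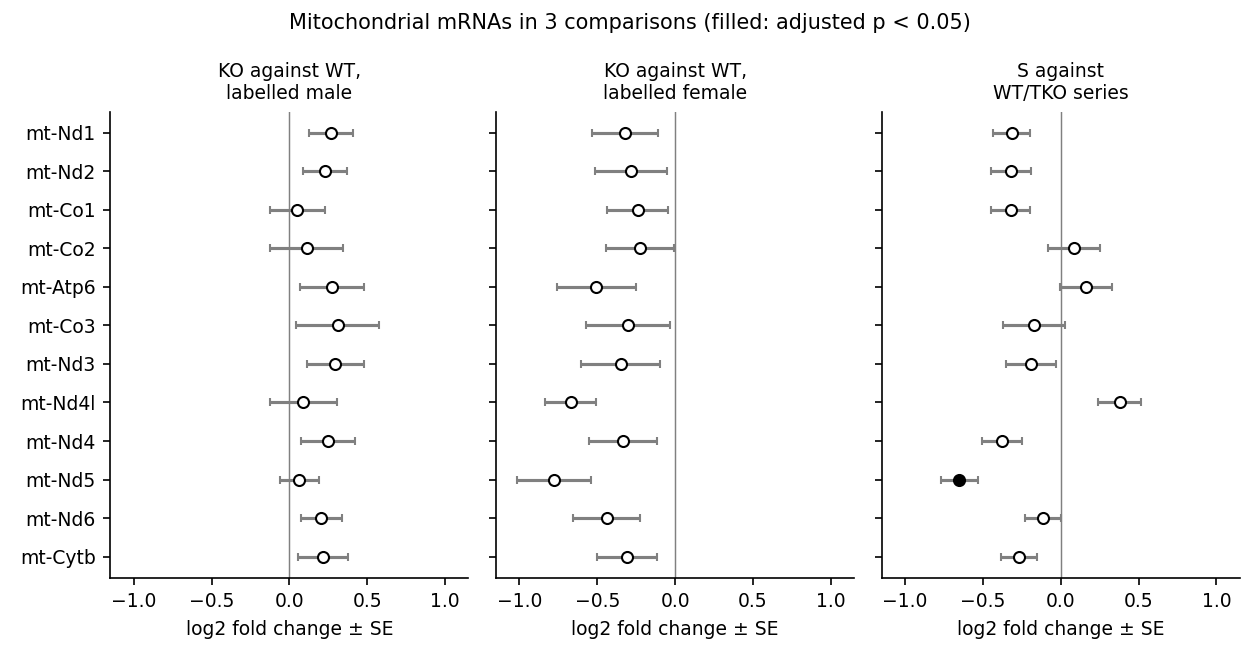
Fitted log2 fold change of each tested mitochondrial mRNA with its SE (edgeR) in 3 comparisons, with filled points for an adjusted p under 0.05. All 12 points lie above 0 in labelled males and below 0 in labelled females, mostly within about 2 SE of 0, and only mt-Nd5 is filled, in the comparison of series.

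The opposite signs in the labelled sexes were tested directly. The genotype by labelled sex term was positive for 12 of 12 members with a median of 0.67, and 0 passed an adjusted p of 0.05 in edgeR or DESeq2 (background 0% and 0.125%). Of the 12, 9 passed an unadjusted p of 0.05, where 15.6% of all genes did, 8.94% with a positive term. The lowest was mt-Nd5 with 0.81 ± 0.24 (unadjusted p = 0.00288, adjusted p = 0.224). Without S1, 8 members were called, where 7.45% of all genes were, and without S2 the median was 0.44 with 0 members called and 1 under an unadjusted p of 0.05, where 11.7% of all genes were. Scaling to the mitochondrial total, which centres the members by construction, gave a median of 0.08. Labelled sex is at odds with the sex-linked genes in S4 to S9, and without those libraries the median was 0.42 with 0 members under an unadjusted p of 0.05, where 4.14% of all genes were. Over all 20 libraries with labelled sex and series as covariates, the median genotype effect was -0.05, the range was -0.26 ± 0.14 (mt-Nd5) to 0.04 ± 0.20 (mt-Co3), and 0 members passed an adjusted or an unadjusted p of 0.05, where 0% and 4.93% of all genes did. DESeq2 also called 0 (background 0.0792%). This median was 0.08 without S2, -0.11 without S7 and -0.19 without S4 to S9, and leaving out S7, S1 or S4 to S9 put 1 member, and leaving out S11 put 2, under an unadjusted p of 0.05, where 4.69% to 6.77% of all genes were in those 4 fits.

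Between the series mt-Nd5 was lower in the S libraries. Its log2 fold change of S against WT/TKO within labelled groups was -0.65 ± 0.12 (edgeR, adjusted p = 0.00177). In FPKM, mt-Nd5 stood at 9471 and 9517 in WT1 and WT2, 6574, 6532 and 6912 in S7 to S9, 6601, 7880 and 7581 in S10 to S12, 9439 and 8993 in TKO5 and TKO6, 6604, 12152 and 10043 in S1 to S3, 6336, 6091 and 4934 in S4 to S6, and 9933, 10815, 8474 and 8676 in TKO1 to TKO4. In CPM scaled by TMM, S and WT/TKO libraries did not overlap in male WT (10811 to 12081 against 17792 to 19359), in male KO (12329 to 13714 against 17677 to 18021) or in female KO (9094 to 11181 against 15075 to 20879). mt-Nd5 was the 1 member of 12 for which this held in all 3 groups, as it did for 4.12% of all genes tested. It was also the 1 member of 12 called, where 14.7% of all genes were called and 6.55% were called lower, so this count is near the background. In male WT and female KO the series also differed in the sex-linked genes, while in male KO both series express the Y-linked genes. The call was lost without S4 to S9 (log2 -0.45, adjusted p = 0.405), with 52 genes called in all in that fit.

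The other members did not pass in the main comparison of series. mt-Nd1, mt-Nd2, mt-Co1, mt-Nd4 and mt-Cytb had fold changes from -0.38 ± 0.13 (mt-Nd4, adjusted p = 0.0558) to -0.27 ± 0.12 (mt-Cytb, adjusted p = 0.117). mt-Nd6 stood at -0.11 ± 0.12 and mt-Nd3 at -0.19 ± 0.16. mt-Co2, mt-Atp6 and mt-Nd4l had positive values of 0.08 ± 0.17, 0.16 ± 0.17 and 0.38 ± 0.14, and the last had an adjusted p of 0.0693. Of the 12, 7 passed an unadjusted p of 0.05, where 31.1% of all genes did. DESeq2 called 3 members lower, mt-Nd1, mt-Nd4 and mt-Nd5, where 19.3% of all genes were called and 8.68% were called lower. mt-Nd4, a proton-pumping subunit of complex I, stood at 17478 and 20656 in WT1 and WT2, 10236, 15978 and 15193 in S7 to S9, 17492, 17985 and 17864 in S10 to S12, 19155 and 21161 in TKO5 and TKO6, 12725, 21562 and 19346 in S1 to S3, 14164, 16715 and 12890 in S4 to S6, and 17617, 13758, 17824 and 18433 in TKO1 to TKO4 FPKM. S2 was the highest and S7 the lowest library. In CPM scaled by TMM, S libraries lay below WT/TKO libraries without overlap in both labelled male groups for mt-Nd1, mt-Nd2, mt-Co1, mt-Nd4, mt-Nd5 and mt-Cytb, 6 of 12 members, where 5.74% of all genes did. In female KO the ranges of these members overlapped, except for mt-Nd5. The S libraries of male WT, S7 to S9, are among those whose sex-linked genes went against the label. Scaled to the mitochondrial total, 4 members were called: mt-Nd4l (log2 0.72), mt-Atp6 (0.48) and mt-Co2 (0.39) higher and mt-Nd5 lower. In that fit 28.3% of all genes were called and 27.4% were called higher, so these counts are near the background.

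The copies were compared in the same fit. Gm28438, the copy of mt-Nd3, was lower in the S libraries (log2 -1.07 ± 0.21, edgeR adjusted p = 0.00244), and Gm28439, the copy of the first part of mt-Nd4, was lower too (-0.51 ± 0.13, adjusted p = 0.0157). In that fit 14.7% of all genes were called and 6.55% were called lower. The other 5 copies did not pass and ran from -0.39 ± 0.16 (Gm10925) to 0.43 ± 0.19 (Gm29216). The counts of mt-Nd3 were 807 to 2784 per library and those of Gm28438 were 2705 to 20108, with the highest in TKO6, where Gm28438 held 12.2 counts per count of mt-Nd3. When the counts of each copy were added to its member, mt-Nd3 was called lower in the S libraries (log2 -0.90, edgeR adjusted p = 0.00486), mt-Atp6 changed sign to -0.26 and mt-Co2 stood at -0.01, and neither was called. Of the members copied on chromosome 1, mt-Nd3 was thus called only with the counts of its copy added, while mt-Nd5, which has no copy there, was called either way. By itself mt-Nd3, a small membrane subunit of complex I, stood at 313 and 391 in WT1 and WT2, 174, 294 and 319 in S7 to S9, 352, 406 and 358 in S10 to S12, 346 and 353 in TKO5 and TKO6, 214, 470 and 387 in S1 to S3, 239, 340 and 288 in S4 to S6, and 274, 253, 291 and 320 in TKO1 to TKO4 FPKM. S7 and S1 were the lowest libraries and S2 the highest. In CPM scaled by TMM, its S libraries lay below its WT/TKO libraries in male WT, and the ranges overlapped in male KO and female KO.

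Composition within the members was compared as shares of the 13. mt-Co1 took a median of 38.4% of the member counts (lowest 35.6% in TKO6, highest 44.1% in S6), mt-Cytb 18.7% (16.4% to 20.5%), mt-Nd1 14.7% (13.05% to 16.1%), mt-Nd4 10.4% (8.39% to 11.9%) and mt-Nd2 8.26% (7.16% to 9.53%). The ranges of mt-Co1, mt-Cytb, mt-Nd1 and mt-Nd4 did not overlap over the 20 libraries. mt-Nd5 took 6.95 and 6.91 in WT1 and WT2, 7.82, 5.796 and 6.45 in S7 to S9, 5.32, 6.39 and 6.51 in S10 to S12, 6.69 and 6.69 in TKO5 and TKO6, 6.23, 7.29 and 7.16 in S1 to S3, 5.73, 4.99 and 4.51 in S4 to S6, and 7.699, 8.73, 7.098 and 7.21 in TKO1 to TKO4 percent of the member counts. S6 and S5 were the lowest libraries and TKO2 was the highest. S7 at 7.82% lay above both WT libraries of the WT/TKO series, so the separation seen in CPM did not hold for this share in male WT.

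**Figure D5:**
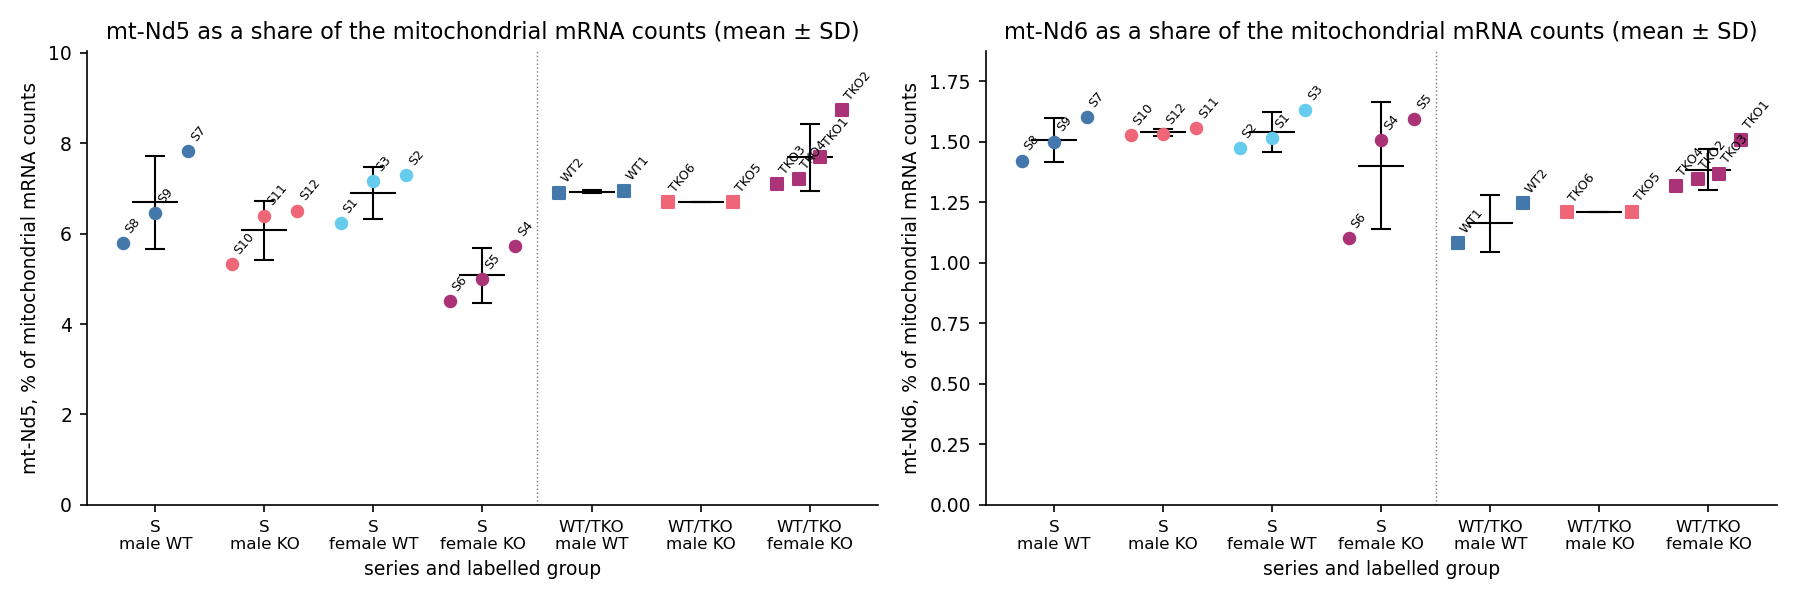
mt-Nd5 (left) and mt-Nd6 (right) as percent of the counts of the 13 mitochondrial mRNAs, 1 point per library, by series and labelled group; bars give the mean and the SD of each set. The mt-Nd5 shares of S4 to S6 lie at 4.51% to 5.73%, and in the male groups the mt-Nd6 shares of the S libraries, 1.42% to 1.60%, lie above those of the WT/TKO libraries, 1.08% to 1.24%.

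mt-Nd6, a membrane subunit of complex I and the 1 member on the minus strand, stood at 5171 and 6026 in WT1 and WT2, 4729, 5629 and 5648 in S7 to S9, 6657, 6737 and 6270 in S10 to S12, 6002 and 5713 in TKO5 and TKO6, 5637, 8631 and 8032 in S1 to S3, 5860, 6831 and 4231 in S4 to S6, and 6834, 5855, 5735 and 5571 in TKO1 to TKO4 FPKM. As a share of the member counts it took 1.08 and 1.24 in WT1 and WT2, 1.601, 1.42 and 1.500 in S7 to S9, 1.53, 1.56 and 1.53 in S10 to S12, 1.21 and 1.21 in TKO5 and TKO6, 1.51, 1.47 and 1.63 in S1 to S3, 1.51, 1.59 and 1.101 in S4 to S6, and 1.51, 1.35, 1.37 and 1.32 in TKO1 to TKO4 percent. S6 and WT1 were the lowest libraries. The log2 ratio of mt-Nd6 to the other 12 members was higher in the S libraries by 0.21 (exact permutation p = 0.0246, adjusted p = 0.176 over 16 tests), with 0.38 in male WT, 0.35 in male KO and 0.000389 in female KO. No difference between genotypes passed (0.04 in labelled males, exact permutation p = 0.45, and -0.16 in labelled females, exact permutation p = 0.5). The ratio of the 5 fully copied members to the other 8 was higher in S libraries by 0.29 (exact permutation p = 0.0514), and the ratio of the 7 copies to the 13 members by 0.27 (exact permutation p = 0.0549), both with an adjusted p of 0.176. Between genotypes these 2 ratios had unadjusted exact permutation p-values of 0.467 or more.

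Nuclear genes that copy mitochondrial DNA, transcribe it, process its RNA or regulate these genes were compared from 4 lists of 43 names, of which 41 had a row and 40 were tested. Their median fold change was -0.06 in labelled males, 0.09 in labelled females and -0.06 between the series. None of the 40 passed an adjusted p of 0.05 in edgeR in labelled males, labelled females, all libraries or the interaction, with 2, 5, 4 and 6 of them under an unadjusted p of 0.05, where 4.75%, 17.9%, 4.93% and 15.6% of all genes were. Between the series 1 passed, Tk2, the mitochondrial thymidine kinase, which was higher in S libraries (log2 0.48 ± 0.13, adjusted p = 0.0158), beside the background of 14.7%. Of the 10 genes of mitochondrial transcription, 1 was lower and 1 higher at an unadjusted p of 0.05 in labelled females. Tfb1m, a methyltransferase of mitochondrial rRNA, had 1.07 ± 0.37 (adjusted p = 0.201). Polrmt, the mitochondrial RNA polymerase, had -0.37 ± 0.13 in labelled females (adjusted p = 0.205) and -0.0022 ± 0.12 in labelled males. Tfam, which packages mitochondrial DNA and starts its transcription, had -0.13 ± 0.14 in labelled males (adjusted p = 0.884). Ppargc1a, a coactivator of mitochondrial biogenesis, had -0.94 ± 0.31 in labelled males and 0.83 ± 0.27 in labelled females (adjusted p = 0.882 and 0.184), with an interaction of -1.45 ± 0.49 (adjusted p = 0.226), so its values had the opposite sign to those of the members in both labelled sexes and did not pass either.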

How the data were processed

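Heart RNA of 20 libraries was purified on poly-T beads and sequenced in pairs with a kit not stated to keep strand. The submitters' processing notes name HISAT2, HTSeq 0.6.1p2, DESeq2 1.26.0 and GRCm38, with no strand or multi-mapping setting. The authors deposited whole-number counts per gene without normalization, and FPKM computed from them. For the members, the FPKM equal the counts scaled to the library total and to the GENCODE M21 gene length. GENCODE M21 holds 29328 of the 29339 identifiers and is on GRCm38, so its coordinates are given.

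From the counts, edgeR 4.0.16 (TMM, quasi-likelihood test, Benjamini-Hochberg adjustment) was run in R 4.3.3 over all genes that reached 10 counts in 3 or more of the libraries fitted. Series was a covariate in the genotype fits and labelled group in the series fit. DESeq2 1.42.0 and limma 3.58.1, on log2(FPKM + 1) and log2(FPKM + 0.1), were alternatives. On simulated counts with 200 changed genes, edgeR recovered 100% of them with 13, 7, 14, 10 and 10 false calls in the male, female, all-library, series and interaction comparisons. The planted changes were larger than any change given here for a member, and the same spread was set for every gene. The recovery therefore does not measure the power to call the members. Shares and ratios, 1 value per library, were compared by exact permutation within strata, adjusted over 16 tests. Correlations used permutation tests (numpy 2.4.6). Copies were found with blastn 2.17.0. In all 44 pairs of libraries of 1 group, counts differed beyond sampling noise.

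Groups follow the labels. Members were the rows named "mt-", values were given per library for mt-Nd1, mt-Nd2, mt-Nd6, mt-Cytb, the mt-Co and mt-Atp genes and any member called, and mt-Nd4l was added after its values were seen. Members and lists were chosen with earlier results of these data known. Planned ratios of rRNAs and tRNAs could not be computed, and the ratios of copied members and of copies, added after seeing the data, took their place.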

Additional observations from a re-analysis of the deposited data

Results flagged for a closer look

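Within labelled groups of 5 or 7 libraries, 69 sets of values were searched for 1 library far from the others, and 9 were found where chance gives about 3.5. Of these, 5 concern members or copies in male KO libraries at the chromosome 1 stretch. mt-Atp6 stood at 413 FPKM in TKO5, where the other 4 ran from 604 to 657. mt-Co3 stood at 1731 FPKM in S11 (others 1316 to 1389) and mt-Nd3 at 406 (others 346 to 358). Gm28438 reached 4350 FPKM in TKO6 (others 1142 to 1547) and Gm10925 reached 2599 (others 1383 to 1532). TKO6 thus held the highest level of both copies, while its mt-Nd3 (353 FPKM) and mt-Atp6 (624 FPKM) lay among those of the other male KO libraries.

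The remaining 4 also involve the copies. The log2 ratio of the 7 copies to the members was -5.30 in TKO5 (other male KO -4.71 to -4.61) and -4.70 in S5 (other female KO -5.33 to -5.08). Gm29216, the copy of the end of mt-Co1, stood at 5987 FPKM in S5 (others 2526 to 3148), and Gm28661, the copy of mt-Co2, at 1172 FPKM in S7 (others 2265 to 2647). No value of mt-Nd1, mt-Nd2, mt-Co1, mt-Nd4, mt-Nd5, mt-Nd6 or mt-Cytb, nor the mitochondrial share itself, was set apart in this way.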

How the results depend on the processing

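No paired analysis was possible because the library names are serial names, and shared numbers in them do not pair libraries. Beside the fits that leave out 1 library, 114 values that answer a comparison were recomputed, of which 95 kept their direction and side of the threshold, 5 reversed, 9 counts moved, 3 passed and 2 no longer passed. Of 287 single values 258 did, 12 reversed, 3 moved, 13 passed and 1 no longer passed. The cause of each change below was not tested, except that fewer libraries leave less power. The comparison of labelled females without S4 to S9 could not be fitted, since no KO library of the S series is then left. Restricting the members to the 13 mRNAs changed nothing, since no other member had a row. Adding the copies to their members, the shares with and without copies, and the ratios of copied members and of copies were chosen after seeing the data.

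Counts of members called in labelled males and over all libraries were 0 in every alternative. In labelled females DESeq2 and the fit without a filter on low counts each called 2 members, and those fits called 383 and 1110 genes against 8 (2.64% and 4.06% of all genes). Between series the count of 1 became 3 with DESeq2, 2 with library totals, 4 with mitochondrial totals, 2 with limma on either FPKM scale, 2 with the copies added and 0 without S4 to S9. These fits called 19.3%, 16.2%, 28.3%, 15.6% and 16.7% (both limma scales), 14.7% and 0.353% of all genes. Leaving out 1 library gave counts of 0 to 7 in labelled females, 1 to 3 between series (3 without S2 or S5, where 14.8% and 12.6% of all genes were called, and 2 without WT1, S8, S9, S1 or TKO2, where 11.2% to 16.4% were) and 0 to 8 for the interaction (7 and 8 without S1). Mitochondrial totals moved the median of all genes by 0.34 between series, -0.18 in labelled males, 0.25 in labelled females and -0.56 in the interaction, and library totals moved it by 0.11 between series. Between series 1239 genes were higher and 994 lower, against 1973 and 483 with library totals, 4167 and 136 with mitochondrial totals, and 1851 and 512 or 2005 and 531 with limma on log2(FPKM + 1) or log2(FPKM + 0.1).

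Uncalled members changed sign. With mitochondrial totals, which centre the members by construction and so test no stability, the log2 fold change was -0.10 for mt-Co1 in labelled males and 0.089 for mt-Co2 in labelled females, and between series it was 0.017 for mt-Nd1, 0.13 for mt-Nd3, 0.22 for mt-Nd6 and 0.057 for mt-Cytb. Without S4 to S9 it was -0.15 for mt-Co1 in labelled males, -0.045 for mt-Co3 over all libraries, and -0.038 for mt-Co2 and 0.044 for mt-Nd6 between series. With the copies added it was -0.0052 for mt-Co2 and -0.26 for mt-Atp6 between series. Leaving out 1 library moved mt-Co1 in labelled males from -0.041 to 0.14, mt-Co2 in labelled females from -0.44 to 0.0055, mt-Co2 between series from -0.0015 to 0.17, and mt-Co3 over all libraries from -0.060 to 0.15.

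Without S4 to S9 the genotype values of shares and ratios rest on TKO5 and TKO6 against WT1 and WT2, and the series values on male KO libraries. The difference in mitochondrial share over both labelled sexes was 0.133 points there, and leaving out 1 library moved it from -1.04 (S7) to 0.976 (S2). In labelled males it moved from 1.19 (S7) to 2.75 (TKO6), with exact permutation p-values from 0.0167 to 0.167. Between series it was -3.00 points without S4 to S9 (exact permutation p = 0.1).

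For the log2 ratio of mt-Nd6 to the other members, the values without S4 to S9 were 0.062 between genotypes and 0.35 between series (exact permutation p = 0.1), and leaving out 1 library gave -0.26 to 0.011 in labelled females, -0.058 to 0.033 over all libraries and 0.17 to 0.30 between series. For the ratio of fully copied to other members, the values without strata were -0.14 in labelled females, -0.054 over all libraries and 0.34 between series (permutation p = 0.0334), and FPKM gave 0.29 between series (exact permutation p = 0.0434). Leaving out 1 library gave -0.015 to 0.25 in labelled males, -0.096 to 0.066 in labelled females, -0.0064 to 0.15 over all libraries and 0.23 to 0.36 between series. For the ratio of copies to members, the values without strata were -0.037 over all libraries and 0.31 between series (permutation p = 0.0312), and leaving out 1 library gave -0.21 to 0.075 in labelled females, -0.012 to 0.12 over all libraries and 0.20 to 0.33 between series.

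With 9 counts in all, mt-Atp8 allowed no comparison, and the counts of copied members carry the assignment of reads that match more than 1 place. With 3 female WT libraries, all of the S series, the share in labelled females could not reach an exact p of 0.05.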
